A study of Mus musculus with 12 samples.

Results

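TRIM (tripartite motif) genes are described here in the liver of mice that express interferon-gamma (IFN-gamma) for a long time. The members are all entries of the deposited expression table whose identifier starts with Trim and a digit, 50 of 19852 entries, including 4 that join a TRIM gene to a neighbour or to another TRIM gene (Hist3h2aandTrim17, Trim16andFbxw10, Trim39andRpp21 and Trim65andTrim47). These entries hold 51 TRIM symbols. TRIM proteins share a RING finger, B-box zinc fingers and a coiled coil in that order, and most of them are E3 ubiquitin ligases, enzymes that attach ubiquitin to chosen proteins. The part that follows the coiled coil sets what each protein binds, and the PRY-SPRY domain is the commonest form of it. Many TRIM proteins tune the sensing of viral RNA and DNA or act on viruses directly, several are induced by interferons, and others work in chromatin, in muscle or at the cytoskeleton.

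The series compared 4 groups of 3 liver RNA sequencing libraries from C57BL/6 mice, all 20 wk old. The groups were female wild-type (WT), female ARE-Del, male WT and male ARE-Del, with WT littermates as controls. ARE-Del mice lack the AU-rich element near the 3′ end of the Ifng mRNA, an element that shortens the life of that mRNA, and they serve as a model of chronic IFN-gamma expression. The allele lies in the germline, so no cell type is singled out, and the labels do not say whether mice of a group shared a litter; the p-values measure only the spread between these libraries. Genotype was taken from the sample titles, because the protocol text names ARE-Del mice for every library. The series asked how liver gene expression differs between the sexes and between the genotypes.

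Expression is given as RPKM, a read number divided by gene length and by the mapped reads of its library, so levels of different genes can be compared per length. Summed RPKM ran from 173476 to 208647 per library. Depth, estimated from the commonest ratio among values below 0.2 RPKM, ran from 0.904 to 1.46 times that of the library female WT 1. In the other libraries that ratio held for only 11.5% to 15.3% of the genes compared. Albumin, the main hepatocyte product, took 13.8% to 16.5% of summed RPKM in female and 8.56% to 12.5% in male libraries. Ifng, the gene that carries the deletion, was listed at 0.0208, 0.0110 and 0.00957 RPKM in female WT and at 0.208, 0.0898 and 0.238 RPKM in female ARE-Del libraries. In males Ifng was listed at 0.0382, 0 and 0 RPKM in WT and at 0.0978, 0.123 and 0.0742 RPKM in ARE-Del libraries. Every ARE-Del value thus lay above every WT value of the same sex. The library labelled female ARE-Del 2 had 0.0456 RPKM of Xist, the RNA of the inactive X chromosome, where the other 5 female libraries had 33.0 to 45.6 RPKM, and like them it had 0 RPKM of the Y-linked Ddx3y. Whether its sex label is right was not tested. The counts of female calls and the changes of the members that passed are therefore also given without it.

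Sequences that interferon-activated factors are known to bind were looked for in the promoters of the TRIM genes. RefSeq windows of build GRCm38.p6, from 250 bases before to 50 bases after a transcript start, were found for 39 of the 51 symbols, 53 windows in all. A pair of motifs of 9 letters each were searched on both strands: GAAANNGAA, the core of the interferon-stimulated response element (ISRE), which interferon regulatory factors bind, and TTCNNNGAA, the gamma-activated site (GAS), named for its part in the response to IFN-gamma. They can overlap, since GAS ends in the letters GAA with which the ISRE core begins, but no TRIM window held both. The ISRE core occurred in 9 of 53 TRIM windows (17%) and in 8.56% of all 32851 windows. GAS occurred in 5 TRIM windows (9.43%) and in 8.3% of all windows. Counted by gene, the shares were 20.5% of TRIM genes and 9.76% of all genes for the ISRE core, and 10.3% and 9.55% for GAS. The ISRE core was found in 4 of the 7 TRIM genes with a window that rose in ARE-Del liver in either sex, in 3 of the 13 that were tested and did not pass, and in 1 of the 19 that were too low to test. GAS was found in 0 of 7, 0 of 13 and 4 of 19 genes of the same kinds. A match is a string of letters and not a proven binding site.

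Of the 8 TRIM genes with the ISRE core, Trim2 and Trim7 did not pass between genotypes with values scaled as deposited, and are not printed. Trim25 did not pass either, and Trim34a was too low to test. Stretches of the windows of 6 members, these included, are printed as examples. They are Trim30a, from the window with the upstream match, on the minus strand (chr7:104465194-104465293), Trim26 on the plus strand (chr17:36836966-36837145), Trim25 on the plus strand (chr11:88999343-88999402) and, from within the first bases of the transcript, Trim21 (positions 6 to 35, chr7:102565448-102565477, minus), Trim12a (positions 1 to 30, chr7:104315466-104315495, minus) and Trim34a (positions 1 to 30, chr7:104244457-104244486, plus). Each runs 5′ to 3′ along the gene, and capitals mark the ISRE core on either strand.
Trim30a: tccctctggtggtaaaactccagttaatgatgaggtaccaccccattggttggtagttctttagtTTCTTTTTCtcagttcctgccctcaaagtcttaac
Trim26: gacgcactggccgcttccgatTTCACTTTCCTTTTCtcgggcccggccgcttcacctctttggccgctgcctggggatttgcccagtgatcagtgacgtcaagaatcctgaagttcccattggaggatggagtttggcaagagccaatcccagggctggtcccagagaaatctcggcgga
Trim25: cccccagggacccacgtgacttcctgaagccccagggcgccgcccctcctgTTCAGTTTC
Trim21: tctgagagGAAACTGAAAGTGAAatttgga
Trim12a: agagttgtggtTTCTGTTTCatttccagag
Trim34a: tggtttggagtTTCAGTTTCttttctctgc
In Trim21 and Trim26 a pair of matches overlaps, at positions 14 to 28 after the start in Trim21 and from -159 to -145 before it in Trim26. Trim12a and Trim34a, both in the Trim5-like cluster of chromosome 7, carry the match at the same place, positions 12 to 20. The other window of Trim30a, not printed, has a match at positions 4 to 12. The windows of Trim24, Trim28, Trim44, Trim56 and Trim68 held neither motif, which says only that these letters are not in that window.

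**Figure D1:**
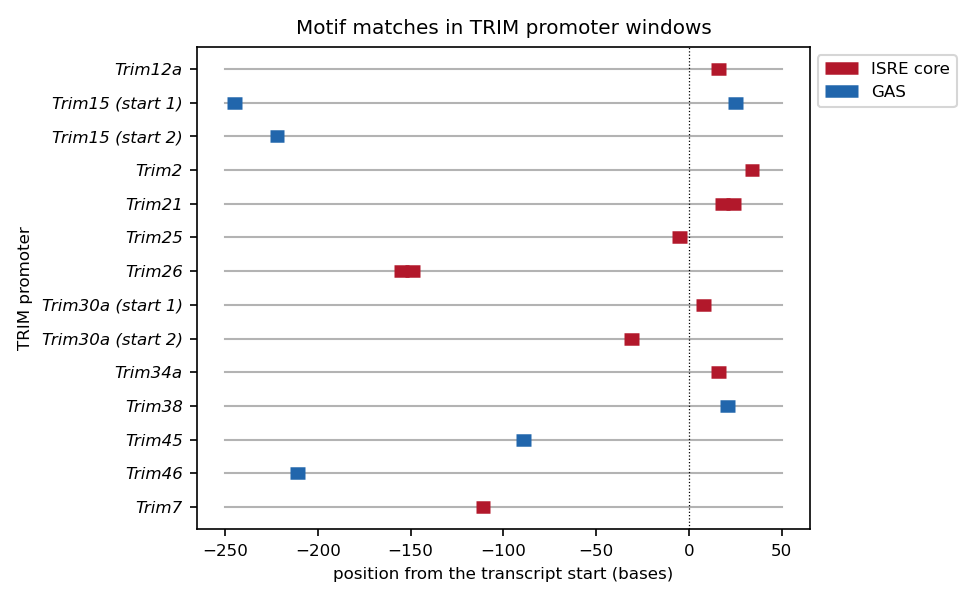
Position of each motif match in bases from the transcript start (dotted line) in the 14 TRIM windows with a match; red bars are the ISRE core and blue bars GAS, and grey lines are the windows searched. The ISRE matches of Trim12a, Trim21, Trim34a and Trim2 lie within 40 bases after the start, and no window holds both colours.

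Most TRIM genes were low in these livers. Of the 50 members, 27 passed the filter for testing, 0.5 RPKM or more in 3 or more libraries, and 14 had at least 1 RPKM in all 12 libraries. The highest was Trim25, which ubiquitinates the RNA sensor RIG-I, with a mean of 10.3 RPKM over all libraries. Trim44 (7.08 RPKM), a RING-less protein that stabilises the adaptor MAVS, Trim28 (6.37 RPKM), the corepressor of KRAB zinc finger proteins, Trim26 (6.13 RPKM), a ligase encoded in the major histocompatibility region, and Trim14 (4.50 RPKM), a mitochondrial adaptor of MAVS, followed. The order of Trim44, Trim28 and Trim26 is not firm, since their values overlapped between libraries. Hist3h2aandTrim17 was the lowest entry tested, at 0.395 RPKM on average. It stood just inside the filter with 3 libraries at or above 0.5 RPKM, all of them female ARE-Del (0.526, 0.518 and 0.546 RPKM). Trim35 met the filter with 4 libraries, all of them ARE-Del (0.709, 0.649 and 0.860 RPKM in females and 0.569 RPKM in males). Outside the filter, Trim72 had the highest single value, 0.343 RPKM, and Trim62 the highest mean. An entry can pass through the group in which it is high, so the 27 lean towards genes that differ between groups. Over all 50 members, summed RPKM ran from 65.3 to 67.7 in female WT, from 75.3 to 88.3 in female ARE-Del, while male WT libraries had 50.2 to 57.7 and male ARE-Del libraries 64.5 to 68.0.

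**Figure D2:**
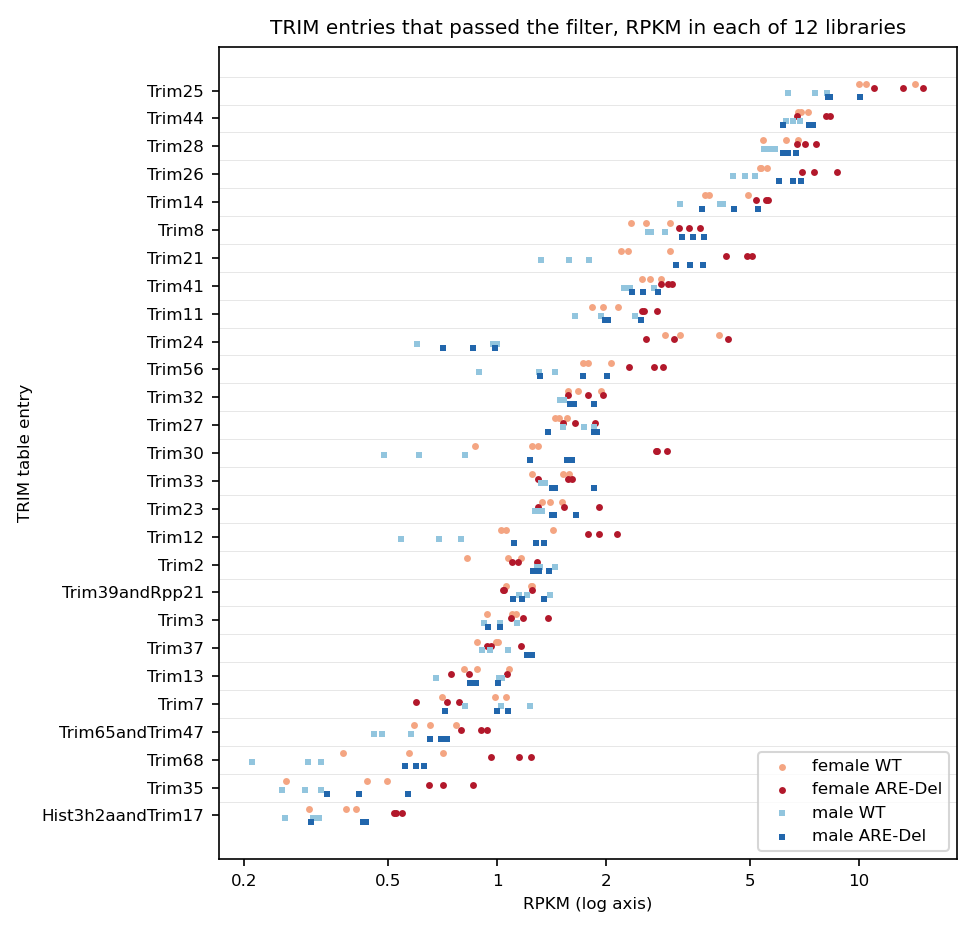
RPKM (log axis) of the 27 TRIM entries that passed the filter, ordered by mean; each point is 1 library, circles are female, squares male, pale colours WT and dark colours ARE-Del. Trim25 lies highest, and the 2 sexes separate most clearly for Trim24.

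The first question was which TRIM genes differ between ARE-Del and WT liver. In females 11 of the 27 tested members rose and none fell: Trim30, Trim21, Trim68, Trim12, Trim26, Trim56, Trim35, Trim8, Trim11, Trim65andTrim47 and Hist3h2aandTrim17. This is 40.7% of the tested members, where 31.3% of all 10568 tested genes passed in this comparison, 25.8% as higher and 5.53% as lower. The count includes Hist3h2aandTrim17, which was tested only because female ARE-Del libraries were high, so its call supports nothing. Without it 10 of 26 rose. Trim35, still among those 10, also met the filter only through ARE-Del libraries, so its call adds no support. In males 6 members rose and none fell, namely Trim30, Trim21, Trim12, Trim26, Trim68 and Trim8, all of which also rose in females. Their share of 22.2% lies near the background of 21.5% of all genes (19.5% higher and 2.04% lower), so the male count says little about the family as such. Passing means a Benjamini-Hochberg adjusted p below 0.05 in limma, over all genes, on log2(RPKM + 1). Changes on that scale understate the ratio of genes near or below 1 RPKM. The median change was 0.17 over the tested members and 0.09 over all genes in females, and 0.14 and 0.10 in males. Both sexes passed upward for 6 of 27 members (22.2%) and for 15.3% of all genes. Every ARE-Del library lay above every WT library of its sex for 13 of 27 members in females (48.1%, beside 34.9% of all genes), for 14 in males (51.9%, beside 36.1%) and for 8 in both sexes (29.6%, beside 23.8%).

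How the libraries are scaled against each other bears on these counts. With quantile normalization the median over all genes moved from 0.09 to -0.07 in females and from 0.10 to -0.05 in males, and with median-of-ratios factors it moved to -0.01 in both sexes. Under quantile normalization 5 members rose and 2 fell (Trim7 and Trim39andRpp21) in females, and 3 rose and 1 fell (Trim39andRpp21) in males, with 1616 of 4113 passing genes higher in females in place of 2722 of 3306 and 923 of 2076 higher in males in place of 2056 of 2272. Median-of-ratios factors left 6 members higher in females and 4 in males, with 1915 of 3661 and 1217 of 2185 passing genes higher. The female count was also 6 without the library female ARE-Del 3 and 7 without female ARE-Del 1. Without female ARE-Del 2, the library that was low in Xist, Hist3h2aandTrim17 no longer met the filter and 9 of 26 members rose in females (34.6%, beside 24.8% of all genes). The female changes without it were 0.86 for Trim30, 0.78 for Trim21, 0.51 for Trim68, 0.50 for Trim26, 0.48 for Trim12, 0.41 for Trim56, 0.36 for Trim35, 0.28 for Trim8 and 0.20 for Trim65andTrim47, all past the threshold in limma, and 0.29 for Trim11, which was not. Without it, 16 members (59.3%, beside 46.0% of all genes) had female groups apart, and 9 (33.3%, beside 27.7%) were apart in both sexes. Fewer libraries make such a separation easier. Trim12, Trim21 and Trim30 passed upward in both sexes, and Trim26 and Trim68 in females, under all 17 other settings tried.

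**Figure D3:**
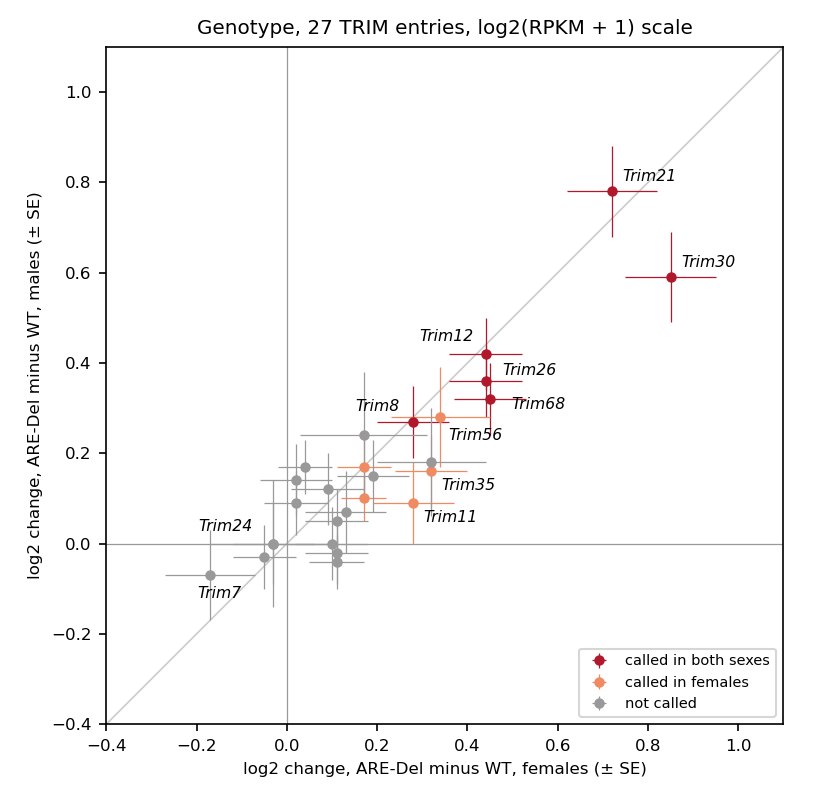
Change from WT to ARE-Del in females (x) and males (y) on the log2(RPKM + 1) scale for the 27 tested TRIM entries; bars are standard errors, red entries passed in both sexes, orange in females and grey in neither, and the diagonal marks equal change. Trim30 and Trim21 stand apart, at 0.85 and 0.72 in females and 0.59 and 0.78 in males.

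Interferon-induced or antiviral TRIM genes made up 5 of the 11 members that rose in females and 4 of the 6 in males. This list, drawn from general knowledge, had 11 members in the table and 7 tested, with a median change of 0.44 in females and 0.36 in males. Of the 20 tested members outside it, 6 rose in females (median 0.11) and 2 in males (median 0.09), where 25.8% and 19.5% of all genes rose with medians of 0.09 and 0.10. Among those 6 are Hist3h2aandTrim17 and Trim35, which met the filter only through ARE-Del libraries. Without female ARE-Del 2, 5 of 7 on the list and 4 of 19 outside it rose in females. The difference between the list and the other members was not tested. Trim30, an interferon-inducible regulator that restrains NF-kappaB signalling, had the largest ratio of the tested members in both sexes. It stood at 1.25, 0.868 and 1.30 RPKM in female WT and at 2.95, 2.76 and 2.78 RPKM in female ARE-Del livers. In males its levels were 0.487, 0.814 and 0.609 RPKM in WT and 1.57, 1.23 and 1.61 RPKM in ARE-Del. The groups did not overlap in either sex, and the male ARE-Del livers overlapped the female WT livers. The ratio of means was 2.48 in females (log2 change 0.85, SE 0.10, limma adjusted p = 2.6e-05) and 2.31 in males (0.59, SE 0.10, limma adjusted p = 0.00088).

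Trim21 is the cytosolic receptor for antibody-coated viruses, also known as the autoantigen Ro52. Female WT livers had 2.31, 3.00 and 2.20 RPKM and female ARE-Del livers 4.91, 4.29 and 5.09 RPKM. Male WT livers had 1.33, 1.80 and 1.59 RPKM and male ARE-Del livers 3.13, 3.42 and 3.72 RPKM. The lowest ARE-Del library of either sex exceeded the highest WT library. Mean Trim21 was 1.90 times as high in female ARE-Del as in WT (log2 change 0.72, SE 0.10, limma adjusted p = 0.00013) and 2.18 times in males (0.78, SE 0.10, limma adjusted p = 0.00017). Trim21 shared no exact stretch of 50 bases with another of the TRIM genes of chromosome 7 compared. How its reads were assigned was not tested.

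Trim12, a rodent relative of the retrovirus restriction factor TRIM5, is listed by RefSeq as Trim12a. Its levels were 1.03, 1.43 and 1.06 RPKM in female WT and 2.15, 1.79 and 1.91 RPKM in female ARE-Del. Male WT livers had 0.541, 0.795 and 0.692 RPKM and male ARE-Del livers 1.11, 1.28 and 1.35 RPKM. Neither sex showed an overlap between genotypes. Trim12 rose by 0.44 (SE 0.08, limma adjusted p = 0.0016) in females and by 0.42 (SE 0.08, limma adjusted p = 0.00373) in males, ratios of 1.66 and 1.85. Of its 50-base windows 7.86% also occur in another gene of the cluster, mostly Trim5, so part of its level is uncertain.

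Trim26, a ligase that acts on the interferon regulatory factor IRF3, was higher in level and changed less in ratio. It measured 5.33, 5.60 and 5.38 RPKM in female WT and 8.71, 6.97 and 7.52 RPKM in female ARE-Del livers. The male values were 4.48, 4.85 and 5.16 RPKM in WT and 6.92, 6.01 and 6.59 RPKM in ARE-Del. Each ARE-Del library again exceeded every WT library. The change was 0.44 (SE 0.08, limma adjusted p = 0.0014) in females and 0.36 (SE 0.08, limma adjusted p = 0.00787) in males. The male call of Trim26 was lost under both other scalings, with a highest adjusted p of 0.0735 in limma.

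Trim56, which promotes signalling from cytosolic DNA, had 1.73, 2.07 and 1.78 RPKM in female WT and 2.87, 2.32 and 2.71 RPKM in female ARE-Del. In males it had 0.889, 1.45 and 1.30 RPKM in WT and 1.73, 1.32 and 2.01 RPKM in ARE-Del. The female groups were apart and the male groups overlapped. Trim56 rose by 0.34 (SE 0.11, limma adjusted p = 0.0347) in females, a call that 8 of 17 other settings lost, among them the fits without female WT 1, female WT 3, female ARE-Del 1 or female ARE-Del 3 (largest limma adjusted p 0.113 over the single-library omissions). In males the change was 0.28 (SE 0.11, limma adjusted p = 0.0972).

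Trim25 and Trim14, also on the antiviral list, did not pass. Trim25 had 10.01, 10.5 and 14.3 RPKM in female WT, 15.1, 11.1 and 13.3 RPKM in female ARE-Del, 6.39, 8.21 and 7.56 RPKM in male WT and 8.23, 8.35 and 10.1 RPKM in male ARE-Del. The female groups overlapped, and the male groups came close without overlap. Its change was 0.17 (SE 0.14, limma adjusted p = 0.389) in females and 0.24 (SE 0.14, limma adjusted p = 0.258) in males. Trim14 had 3.85, 4.96 and 3.76 RPKM in female WT, 5.60, 5.20 and 5.55 RPKM in female ARE-Del, 3.22, 4.13 and 4.22 RPKM in male WT and 5.28, 3.68 and 4.53 RPKM in male ARE-Del. The female genotypes of Trim14 did not overlap and the male ones did. Its changes of 0.32 (SE 0.12, limma adjusted p = 0.0612) and 0.18 (SE 0.12, limma adjusted p = 0.324) missed the threshold, though 4 fits that each left out 1 library took the female one past it.

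**Figure D4:**
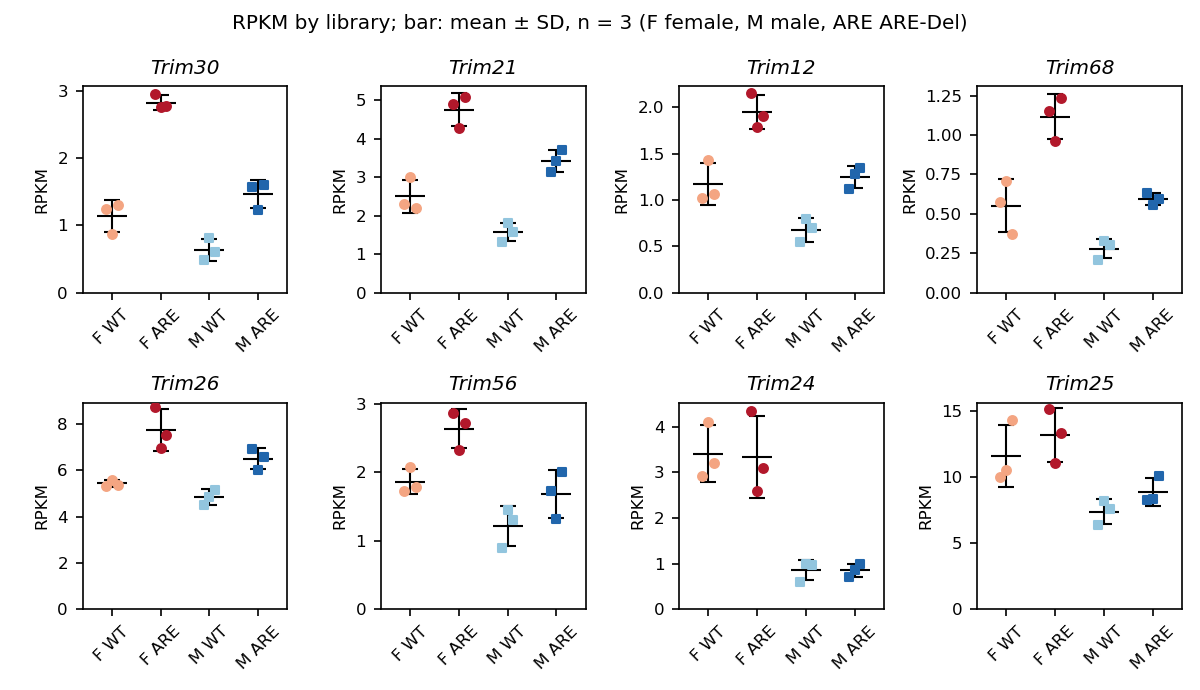
RPKM of 8 TRIM genes in each of the 12 libraries, with circles for female and squares for male livers and bars for the mean ± SD of 3 libraries; each axis starts at 0. Trim30, Trim21, Trim12, Trim68 and Trim26 are higher in ARE-Del in both sexes without overlap, and Trim24 separates by sex only.

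Chromosome 7 held 10 members, 6 of them tested, and 4 of those 6 rose in both sexes (Trim12, Trim21, Trim30 and Trim68), beside 2 of 21 tested members elsewhere (Trim26 and Trim8) and 15.3% of all genes. The 4 also passed in both sexes without female ARE-Del 2, and the difference between chromosome 7 and the rest was not tested. Trim68, a ligase that dampens type I interferon production, lies near Trim21. Female WT livers had 0.572, 0.708 and 0.374 RPKM of Trim68 and female ARE-Del livers 1.15, 0.959 and 1.24 RPKM. Male WT livers had 0.210, 0.327 and 0.301 RPKM and male ARE-Del livers 0.629, 0.555 and 0.596 RPKM. In both sexes the genotypes were apart, with the male ARE-Del livers inside the range of the female WT livers. Trim68 rose by 0.45 (SE 0.08, limma adjusted p = 0.00083) in females and by 0.32 (SE 0.08, limma adjusted p = 0.0135) in males, ratios of 2.02 and 2.13. Its male call was lost without male WT 1 (limma adjusted p = 0.0639) and under quantile normalization (limma adjusted p = 0.183).

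The Trim5-like cluster of chromosome 7 also has genes that the table lists under older names, which RefSeq synonyms resolve and which are not counted among the 50. Of these 5 entries 3 were tested, and all 3 rose in both sexes. They were 9230105E10Rik (Trim12c, changes 0.78 and 0.71 in females and males), AI451617 (Trim30d, 0.68 and 0.65) and EG667823 (Trim5, 0.67 and 0.51). Trim12c averaged 3.58 RPKM in female WT, 6.87 in female ARE-Del, and, in males, 2.23 in WT and 4.27 in ARE-Del livers, above its neighbour Trim12. Reads within this cluster are hard to assign: 29.5% of the 50-base windows of Trim5 and 28.7% of those of Trim12c occur in another gene of the cluster, while for Trim30a the share is 5.98%. Levels of the single cluster genes are uncertain to that extent.

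Outside the antiviral list, Trim8, which relieves the block of cytokine signalling by SOCS1, rose in both sexes. It measured 3.00, 2.35 and 2.58 RPKM in female WT, 3.19, 3.40 and 3.64 RPKM in female ARE-Del, 2.61, 2.66 and 2.92 RPKM in male WT and 3.73, 3.26 and 3.48 RPKM in male ARE-Del livers. The genotypes were apart in both sexes, by a small margin in females. The changes of 0.28 (SE 0.08, limma adjusted p = 0.0143) and 0.27 (SE 0.08, limma adjusted p = 0.0264) were each lost under both other scalings. The female one was also lost without female WT 2 or female ARE-Del 3 (largest limma adjusted p 0.0687), and the male one without male WT 1, male WT 2, male ARE-Del 1 or male ARE-Del 3 (largest limma adjusted p 0.0966 over the single-library omissions).

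Trim35, a ligase linked to glycolysis and to IRF7, had 0.436, 0.260 and 0.495 RPKM in female WT, 0.709, 0.649 and 0.860 RPKM in female ARE-Del, 0.254, 0.294 and 0.325 RPKM in male WT and 0.569, 0.339 and 0.416 RPKM in male ARE-Del. No genotype pair overlapped. It rose by 0.32 (SE 0.08, limma adjusted p = 0.00743) in females with a change of 0.16 (SE 0.08, limma adjusted p = 0.173) in males, a value that turned to -0.02 under quantile normalization. Trim35 met the filter only through ARE-Del libraries, in which it was high, so its female call supports nothing. Trim11 (0.28), Trim65andTrim47 (0.17) and Hist3h2aandTrim17 (0.17) rose in females by amounts that other settings did not hold: Trim11 passed under 7 of 17, Trim65andTrim47 under 9 of 17 and Hist3h2aandTrim17 under 10 of the 14 in which it was tested. Leaving out any 1 of the 6 female libraries, male WT 3 or male ARE-Del 3 ended at least 1 of these calls, with limma adjusted p of up to 0.131 for Trim11, 0.137 for Trim65andTrim47 and 0.0968 for Hist3h2aandTrim17. Trim65 ubiquitinates the RNA sensor MDA5, and its joined entry cannot be split from Trim47. In males Trim65andTrim47 also changed by 0.17 (SE 0.06, limma adjusted p = 0.0507), with the genotypes apart. That male change missed the threshold here and passed under 4 of 17 other settings.

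Members of other kinds showed no call. Trim28 had 6.81, 5.46 and 6.31 RPKM in female WT, 6.78, 7.13 and 7.64 RPKM in female ARE-Del, 5.65, 5.89 and 5.49 RPKM in male WT and 6.71, 6.37 and 6.16 RPKM in male ARE-Del. It overlapped between genotypes in females and not in males, with changes of 0.19 (SE 0.08, limma adjusted p = 0.079) and 0.15 (SE 0.08, limma adjusted p = 0.184). Without female WT 1 the female change was 0.25 and passed (limma adjusted p = 0.0323). Trim44 had 6.94, 7.26 and 6.79 RPKM in female WT, 8.13, 6.76 and 8.36 RPKM in female ARE-Del, 6.29, 6.61 and 6.88 RPKM in male WT and 6.18, 7.48 and 7.28 RPKM in male ARE-Del. Its genotypes overlapped in both sexes, and its changes of 0.13 and 0.07 turned to -0.01 and -0.08 with median-of-ratios factors.

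By the domain that follows the coiled coil, 9 of 15 tested members with a PRY-SPRY domain and no COS box rose in females (median change 0.28) and 5 in males (median 0.17), where 25.8% and 19.5% of all genes rose. The 9 include Hist3h2aandTrim17, without which the female count was 8 of 14. Without female ARE-Del 2 it was 7 of 14. Each of these counts still includes Trim35, which met the filter only through ARE-Del libraries. Of 3 tested members with no such domain, 2 rose in females and 1 in males. None of the 3 with a plant homeodomain and bromodomain (Trim24, Trim28 and Trim33), of the 3 with NHL repeats (Trim2, Trim3 and Trim32), or of the single tested members with a MATH domain (Trim37), an ARF domain (Trim23) or a transmembrane anchor (Trim13) passed in either sex. Their changes ran from -0.03 to 0.19 in females and from -0.04 to 0.17 in males. These counts are small and carry no test of the difference between classes.

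The next question was which TRIM genes differ between females and males. In WT livers 6 of 27 tested members were higher in females and none in males (22.2%, beside 9.76% of all genes, 6.72% higher in females and 3.04% in males): Trim24, Trim25, Trim21, Trim30, Trim12 and Trim68. In ARE-Del livers the same 6 passed, with Trim35 and Trim56 added, again all higher in females (29.6%, beside 22.4% of all genes, 16.4% higher in females and 6.02% in males). Both genotypes passed for 6 of 27 members and for 4.15% of all genes. The median difference was 0.10 over the members and 0.04 over all genes in WT, and 0.15 and 0.04 in ARE-Del. Quantile normalization moved the split of all passing genes to 588 of 1395 higher in females in WT, in place of 710 of 1031, and to 1396 of 3010 in ARE-Del, in place of 1734 of 2370. Under it 5 members were higher in females and Trim2 was higher in males in WT, and 8 were higher in females and 3 in males (Trim7, Trim37 and Trim39andRpp21) in ARE-Del. Median-of-ratios factors gave 743 of 1446 genes in WT, with Trim2 again added on the male side, and 1613 of 2745 in ARE-Del.

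Trim24, a nuclear receptor cofactor also called TIF1-alpha that restrains liver tumours in mice, had the largest sex difference of the 27 tested members on the log2(RPKM + 1) scale. Female WT livers had 2.92, 4.11 and 3.20 RPKM and male WT livers 0.601, 1.00 and 0.974 RPKM. Female ARE-Del livers had 4.34, 2.58 and 3.09 RPKM and male ARE-Del livers 0.706, 0.857 and 0.985 RPKM. Even the lowest female library, female ARE-Del 2, exceeded the highest male library, and within a sex the genotypes overlapped. The female to male ratio of means was 3.97 in WT (log2 difference 1.24, SE 0.14, limma adjusted p = 0.00017) and 3.93 in ARE-Del (1.21, SE 0.14, limma adjusted p = 0.00017). By genotype Trim24 changed by -0.03 (SE 0.14, limma adjusted p = 0.879) in females and by 0.00 (SE 0.14, limma adjusted p = 0.994) in males. Its sex difference passed under all 17 other settings, from 1.05 to 1.89. Without female ARE-Del 2 it was 1.34 in ARE-Del, where Trim30 then differed by 0.65, Trim25 by 0.62, Trim56 by 0.51, Trim68 by 0.46, Trim21 by 0.44, Trim12 by 0.43 and Trim35 by 0.31, and all of them passed in limma.

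Apart from Trim24 and Trim25, the members with a sex difference also rose with the genotype in females. Trim25 was 0.58 higher in females in WT (SE 0.14, limma adjusted p = 0.0243) and 0.51 higher in ARE-Del (SE 0.14, limma adjusted p = 0.0233), and in each genotype every female library lay above every male one. Each of these Trim25 calls was lost under 4 of 17 other settings, with differences from 0.41 to 0.67. Trim30 differed by 0.38 in WT (limma adjusted p = 0.025) and by 0.64 in ARE-Del (limma adjusted p = 0.0007). For Trim21 the differences were 0.44 (limma adjusted p = 0.0152) and 0.38 (limma adjusted p = 0.0165), and for Trim12 0.37 (limma adjusted p = 0.0164) and 0.39 (limma adjusted p = 0.00602). Trim68 differed by 0.27 in WT (limma adjusted p = 0.0471), a call that 13 of 17 other settings lost, and by 0.41 in ARE-Del (limma adjusted p = 0.00306), which all 17 kept. Trim56 differed by 0.38 (limma adjusted p = 0.054) and 0.44 (limma adjusted p = 0.0146), and Trim35 by 0.11 (limma adjusted p = 0.396) and 0.27 (limma adjusted p = 0.0249). Trim35 met the filter only through ARE-Del libraries, most of them female, so its ARE-Del call adds no support.

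Single libraries weigh on the sex counts. Without male WT 1, in which Trim12, Trim21, Trim30, Trim68, Trim24 and Trim25 were each the lowest of the WT males, only Trim24 passed in WT. The limma adjusted p in WT then rose to 0.0835 for Trim12 and 0.0782 for Trim21. Without male WT 3 the count was 3, as it was with no filter on low values. In ARE-Del the count fell to 4 without female ARE-Del 3, to 5 without female ARE-Del 1 (4 higher in females, and Trim37 higher in males) and to 5 without male ARE-Del 2, and it was 9 without female ARE-Del 2, where Trim26 was added. Trim25 and Trim30 lost their WT call without female WT 3, male WT 1 or male WT 3, and Trim30 also without female WT 1 (limma adjusted p of up to 0.114 and 0.117). In ARE-Del, Trim21, Trim25, Trim35 and Trim56 did not pass without female ARE-Del 1 or female ARE-Del 3, with limma adjusted p of up to 0.0703, 0.0949, 0.108 and 0.0661 over the single-library omissions. Male libraries mattered too: Trim21 and Trim25 were lost without male ARE-Del 1, and Trim25, Trim35 and Trim56 without male ARE-Del 2. Trim35 was also lost without male ARE-Del 3. Trim12, Trim24, Trim30 and Trim68 kept their ARE-Del call in each of these fits. Females were above males without overlap in both genotypes for 9 members (33.3%, beside 10.4% of all genes), and for 9 without female ARE-Del 2 (beside 13.4%).

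**Figure D5:**
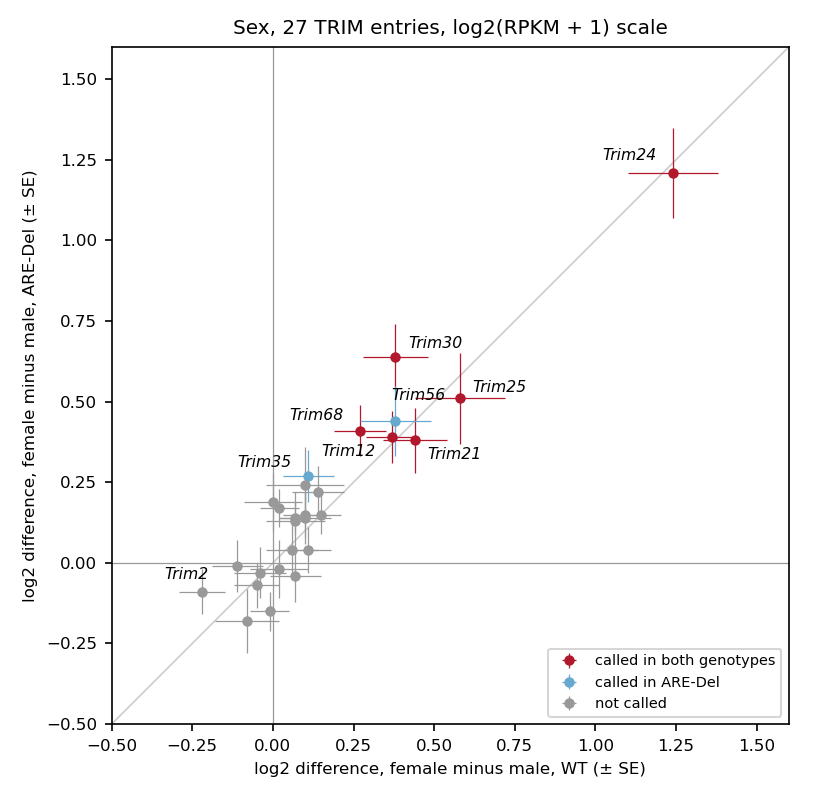
Difference between females and males (female minus male) in WT (x) and ARE-Del (y) on the log2(RPKM + 1) scale for the 27 tested TRIM entries; bars are standard errors, red entries passed in both genotypes, blue in ARE-Del and grey in neither, and the diagonal marks an equal difference. Trim24 lies far from all others, at 1.24 and 1.21.

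Whether the genotype changes TRIM genes differently in the 2 sexes was tested as an interaction. No tested member passed in limma, and none had an unadjusted p below 0.05, while 0.568% of all genes (60) passed and 1231 had an unadjusted p below 0.05. The lowest adjusted p of a member in limma was 0.538, for Trim30, whose change was 0.25 smaller in males (interaction -0.25, SE 0.14). For Trim21 the interaction was 0.06 (SE 0.14) and for Trim12 -0.02 (SE 0.12). The count of members stayed at 0 under all other settings. Calls in females alone, such as those of Trim56, Trim35 and Trim11, are therefore not shown to differ from the change in males.

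The 23 members below the filter are given as values with no test. Of these, 16 never reached 0.1 RPKM, and 6 averaged at least 0.05 RPKM: Trim62, Trim72, Trim59, Trim45, Trim6 and Trim36. Trim62 averaged 0.147 RPKM in WT and 0.199 RPKM in ARE-Del females, with male means of 0.140 and 0.153 RPKM, and its genotypes overlapped in both sexes. Trim45, with 0.154, 0.138, 0.133 and 0.124 RPKM in the same order, overlapped likewise. Trim36 averaged 0.0421, 0.122, 0.0216 and 0.0525 RPKM, with the genotypes apart in both sexes. Trim59, a membrane-anchored regulator of innate signalling, ran from 0.0668 to 0.153 RPKM in female WT, from 0.209 to 0.326 in female ARE-Del, from 0.0355 to 0.0630 in male WT and from 0.124 to 0.155 in male ARE-Del, without overlap between genotypes. Trim6, which makes unanchored ubiquitin chains in interferon signalling, had 0.265, 0.0314 and 0.259 RPKM in female ARE-Del and 0.0298, 0.0995 and 0.0214 RPKM in female WT, so female ARE-Del 2 fell among the WT libraries. In males Trim6 had 0.00479, 0.00346 and 0.00940 RPKM in WT and 0.0376, 0.0506 and 0.0663 RPKM in ARE-Del. Trim34, whose start carries the ISRE core printed above, averaged 0.0278, 0.0849, 0.0193 and 0.0348 RPKM in female WT, female ARE-Del, male WT and male ARE-Del, and 39.8% of its 50-base windows also occur in Trim34b.

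Trim72, known from membrane repair in striated muscle, had 0.0323, 0.0170 and 0.0297 RPKM in female WT and 0.277, 0.208 and 0.141 RPKM in female ARE-Del. In males it had 0.119, 0.142 and 0.126 RPKM in WT and 0.275, 0.161 and 0.343 RPKM in ARE-Del. Every ARE-Del value was above the WT values of its sex, and the male WT livers were above the female ones. The muscle markers Acta1, Myh4 and Ckm summed to at most 0.0184 RPKM in female and 0.0358 RPKM in male ARE-Del libraries. In WT the sums were higher in single libraries, at 0.432 RPKM in female WT 2 and 0.939 RPKM in male WT 2, and 0 to 0.0101 RPKM in the others. In RefSeq GRCm38.p6 the gene next to Trim72 is Pycard, an inflammasome adaptor picked out here after its values were seen, which averaged 0.392, 2.69, 0.215 and 1.96 RPKM in female WT, female ARE-Del, male WT and male ARE-Del. The part of neighbouring reads in the Trim72 values was not tested. The use of strand in counting is not stated in the labels, and in that annotation Trim2, Trim6, Trim7, Trim11, Trim12a, Trim13, Trim14, Trim17, Trim25, Trim26, Trim28, Trim30a, Trim32, Trim35, Trim37, Trim44, Trim46, Trim60, Trim67 and Trim69 overlap other annotated genes, from which their reads may not be separable.

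Genes that work with TRIM ligases were read from lists drawn up from general knowledge. Over all genes tested, 25.8% rose and 5.53% fell in females, and 19.5% rose and 2.04% fell in males. Of 14 RNA and DNA sensing partners, all tested, 10 rose in females and 8 in males, with median changes of 0.39 and 0.32. The largest in females were Irf7, a master regulator of type I interferon (1.47 in females and 1.34 in males), the kinase gene Ikbke (1.12 and 0.39) and Tmem173, which encodes STING (1.01 and 0.63). Of 14 genes for ubiquitin-activating and ubiquitin-conjugating enzymes, 2 rose and 1 fell in females and 1 rose in males. They were Ube2l6, which also conjugates ISG15 (0.99 in females and 0.86 in males), Ube2v1 (0.34 in females, and 0.19 in males, which did not pass) and Ube2e2 (-0.34 in females, and -0.21 in males, which did not pass). Of 8 tested corepressor partners of Trim28, 2 rose in females (Chd4 by 0.41 and Hdac1 by 0.30) and 1 in males (Hdac1 by 0.25). Neither the ubiquitin enzymes nor the Trim28 partners rose more often than all genes did, so both counts say little about these lists. Among TRIM proteins with other names, Mefv (pyrin, 0.63 and 0.36) and Pml (0.52 and 0.40) rose in both sexes and Mid2 did not pass. Mefv met the filter only through female ARE-Del libraries, so its female call adds no support.

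Markers of macrophages, monocytes, T cells and NK cells moved with genotype beside the TRIM genes. Over all genes tested, 25.8% rose in females and 19.5% in males. Of the macrophage and monocyte markers, 8 of 8 tested rose in females and 7 of 8 in males. Among them Ccr2 met the filter only through ARE-Del libraries, so its female call adds no support. The summed RPKM of the macrophage and monocyte markers ran from 47.6 to 79.5 in female WT, from 233 to 322 in female ARE-Del, from 33.0 to 59.4 in male WT and from 168 to 212 in male ARE-Del. Of the T and NK cell markers 6 of 6 tested rose in females and 5 of 6 in males, with sums of 1.13 to 2.39, 7.86 to 13.0, 0.934 to 1.38 and 5.17 to 7.66 RPKM in the same order. All of those tested but Nkg7 (Cd3d, Cd3g, Cd8a, Cd8b1 and Gzmb) met the filter only through ARE-Del libraries, so their calls add no support. No defining marker of these lists was at 0 in a whole group. Of the hepatocyte markers, 2 of 8 rose in females, and 3 rose and 1 fell in males. Of the B cell markers 1 of 2 tested rose in each sex, Cd79b in females and Cd79a in males. Cd79b met the filter only through ARE-Del libraries, so its call adds no support. Neutrophil markers gave 1 of 2 in females and 0 of 2 in males, and endothelial markers 2 of 5 and 1 of 5. So few genes were tested in these lists that their shares say little. The hepatocyte count in females and the endothelial count in males lie near the shares over all genes. Between the sexes 1 macrophage marker and no T or NK cell marker was higher in female WT livers, and 4 and 6 were higher in female ARE-Del livers. Because of the filter, the ARE-Del sex calls of the T and NK cell markers other than Nkg7 add no support either. Over all genes, 6.72% were higher in females in WT and 16.4% in ARE-Del. In whole liver, more cells of a type and more RNA per cell cannot be told apart, and the part of these cells in the TRIM values was not tested.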

How the data were processed

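Livers of 12 mice (4 groups of 3) were sequenced after TruSeq preparation of Trizol RNA, per the labels' protocols. The authors deposited RPKM values per gene, made with Trimmomatic 0.30, TopHat2 2.0.8, the mm9 build, Partek and GenomeStudio 6.6, per the submitters' processing notes. For the counting rule and strand the sources used here give nothing. Log2(RPKM + 1) of entries with 0.5 RPKM or more in 3 or more libraries was fitted with limma 3.58.1 (R 4.3.3, eBayes with trend, 4 group means, scaling as deposited) over all genes, and p-values were adjusted by Benjamini-Hochberg separately for the 5 comparisons (threshold 0.05). The script was tested on simulated data. Errors are SE for log2 changes and SD for RPKM. The median SE of a log2 change was 0.0813, and of an interaction 0.115. Read totals were not used here, and relative depth was estimated from ratios of values below 0.2 RPKM.

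Full values were given for members that passed with a change of at least 0.5 in either sex, members that passed between the sexes, and the 5 with the highest mean; others serve as examples, and Trim8 was given in full after its values were seen. The members, gene lists and tests were chosen with earlier results of these data known. Of 227 list entries 196 matched the table by symbol or RefSeq synonym. Promoters came from RefSeq GRCm38.p6. Entries were not at hand for Trim3, Trim8, Trim11, Trim14, Trim16, Trim17, Trim29, Trim33, Trim35, Trim36, Trim50 and Trim65. Shared sequence was counted over 50-base windows. The alternatives were another pseudocount (0.1), no filter, 2 other scalings, a replicate block and each library left out in turn. Tables and figures were made with pandas 2.3.3 and matplotlib 3.10.9 under Python 3.11.15.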

Additional observations from a re-analysis of the deposited data

How the results depend on the processing

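The counts of calls and the changes of the members that passed in a comparison or were among the highest in level were recomputed under 17 other settings, 12 of which left out 1 library; Hist3h2aandTrim17 could be tested in 14. Counts per list, class and chromosome and of groups that do not overlap were recomputed without female ARE-Del 2, an alternative chosen after seeing the data, and counts of partner genes and markers were not recomputed. The number of TRIM members that passed was 11 in the female genotype comparison and became 6 with median-of-ratios factors, 7 with quantile normalization and 6 to 12 with single libraries left out. In males it was 6 and ran from 4 to 7 without single libraries. The interaction count of members was 0 throughout, from 0 to 0 without single libraries. Between the sexes it was 6 in WT, 3 with no filter on low values and 1 to 6 without single libraries, and 8 in ARE-Del, with 4 to 9. Over all genes, the counts without single libraries ran from 2297 to 3272 (females), from 1259 to 2481 (males), from 0 to 74 (interaction), from 525 to 1116 (sexes in WT) and from 1367 to 2494 (sexes in ARE-Del). The interaction count over all genes, 60, became 14 with a pseudocount of 0.1, 34 with no filter, 106 with quantile normalization and 32 with the replicate block. The cause of these shifts was not tested. Among the members recomputed, directions turned for small changes that had not passed or were near the threshold: Hist3h2aandTrim17 to -0.03 in females and -0.09 in males with quantile normalization; Trim11 in males to -0.02 (median-of-ratios), -0.06 (quantile) and, over the single-library omissions, 0.00 to 0.18; Trim35 in males to -0.02 (quantile); and Trim44 to -0.01 and 0.00 in females and -0.08 and -0.05 in males (median-of-ratios and quantile). The labels do not say that a replicate number pairs samples, and the data gave no sign of it: deviations of same-numbered libraries correlated at a median of -0.019 (-0.291 to 0.245 over 18 pairs), others at -0.007. With the number as a block, 10 members passed in females, 6 in males, 0 in the interaction, 5 between the sexes in WT and 8 in ARE-Del. Depth limits mainly the 23 members below the filter, where a few reads set the value.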
